A study of Columba livia with 12 samples.

Results

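The members were 68 chaperone genes of the domestic pigeon (Columba livia), whose products help other proteins to fold, to refold after damage, to assemble or to be handed on for degradation. They were chosen by symbol from the 12918 genes of a table of mRNA levels in breast muscle. A gene was a member when its RefSeq symbol began with DNAJ, HSPA, HSPB, HSPD, HSPE, HSPH, HSP90 or UNC45, or with CCT or BAG followed by a digit, and its mean level was at least 1 TPM (a gene's share of a library, corrected for transcript length) over the 9 libraries used. All 68 genes of the table with such a symbol reached that minimum, so it removed none. The lowest mean was 2.44 TPM for DNAJC6, the next 3.03 TPM for HSPB3, and the highest 993 TPM for HSP90AA1. By family there were 2 HSP90 genes, 10 of HSP70 and its relatives, 5 small heat shock proteins, 36 J-domain proteins, 7 subunits of the CCT chaperonin, 4 BAG genes, 2 UNC45 genes, the mitochondrial chaperonin HSPD1, and HSPBAP1, which shares the HSPB prefix but is a protein that binds a small heat shock protein. The annotation has 7 more genes that match by symbol (BAG4, DNAJB8, DNAJC22, DNAJC30, DNAJC5B, DNAJC5G and HSPBP1), and these, like HSP90AB1, HSPE1 and HSPA1A, were not analysed here.

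The birds were White-King pigeons, a breed raised for meat, and the tissue was the breast muscle, which powers the downstroke of the wing. Groups were birds 1 day old (1D), 14 days old (14D) and 28 days old (28D), with 3 libraries each, made from total RNA of muscle that had been snap-frozen. No agent or allele differed between groups, and age was the only difference stated. The fourth age group of the study, adults of 2 years (2Y), was not analysed here. The labels do not say whether the libraries are of separate birds, and p-values measure the spread between libraries, which may be technical. The design asks how transcript levels differ between ages after hatching.

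Cytosolic HSP70 proteins bind unfolded stretches of polypeptide and release them in a cycle driven by ATP. J-domain proteins (DNAJ genes) bring clients to HSP70 and trigger its ATP hydrolysis, while BAG and HSP110 proteins make it release its nucleotide and its client. HSP90 takes over kinases, hormone receptors and other clients late in their folding. CCT is a ring chaperonin that folds newly made actin and tubulin, and the small heat shock proteins hold unfolding proteins without using ATP. In muscle, UNC45B folds the myosin motor domain with HSP90, and HSPB8 with BAG3 clears damaged proteins from the Z-disc. The endoplasmic reticulum and the mitochondria have HSP70, HSP90 or chaperonin systems of their own.

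The mRNA table summed to between 835976 and 844829 TPM in the 1D libraries and between 737968 and 790319 TPM in the later ones. Nearly all of the remainder lay in a second table of long noncoding RNAs, whose share was thus larger at 14D and 28D. Depth and counting error are unknown, since TPM holds no read numbers. Spearman correlations across genes were 0.965 to 0.984 within a stage and 0.840 to 0.968 between stages. Muscle fibre markers were high at each stage: 5 of the 7 markers chosen (ACTA1, TNNT3, TNNC2, ACTN2 and TTN) were in the table and together had 28983 ± 1950.3 TPM at 1D, 38179 ± 3145 at 14D and 28745 ± 816 TPM at 28D (SD of 3 libraries). All changes are log2 changes of TPM + 1 from limma, which understate the change of genes at a few TPM, and a gene was called where its Benjamini-Hochberg adjusted p over all 11951 genes tested lay below 0.05. Over all genes tested the median log2 change was -0.31 for 14D vs 1D, -0.07 for 28D vs 14D and -0.38 for 28D vs 1D. For this reason results with each library rescaled (by its median ratio), which centres the genes near 0, are given beside the deposited scale. Of the 5 fibre markers, 1 was called higher and 1 lower at 14D vs 1D (2 and 0 after rescaling). At 28D vs 1D, 1 was higher and 3 were lower, with a median log2 change of -0.88 (2 and 3 after rescaling). Of all genes 16.4% were higher and 43.9% lower in that comparison as deposited. The tissue was sequenced whole, so fewer cells of a type and less RNA per cell cannot be told apart.

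Most of the module differed between hatchlings and older birds, in both directions. Of 68 members, 14 were higher at 14D than at 1D and 33 were lower, against 13.6% higher and 39.2% lower of all tested genes. Members thus had 20.6% higher and 48.5% lower, and their median log2 change was -0.47. At least a 2-fold change was found in 9 of the higher and 17 of the lower members (background 6.08% and 19.2%). After rescaling the split was 20 higher and 25 lower, against 24.5% and 25.9% of all genes. The F test over the 3 stages called 52 members (76.5%, against 58.4% of all genes), of which 34 were highest on average at 1D, 1 at 14D and 17 at 28D. Among all tested genes it called 6985, of which 4987 were highest at 1D, 634 at 14D and 1364 at 28D. A highest mean at 1D was thus common among called genes in general. HSPB8 and HSP90AA1 lay among the higher members and the CCT genes, HSPA14 and DNAJC7 among the lower.

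**Figure D1:**
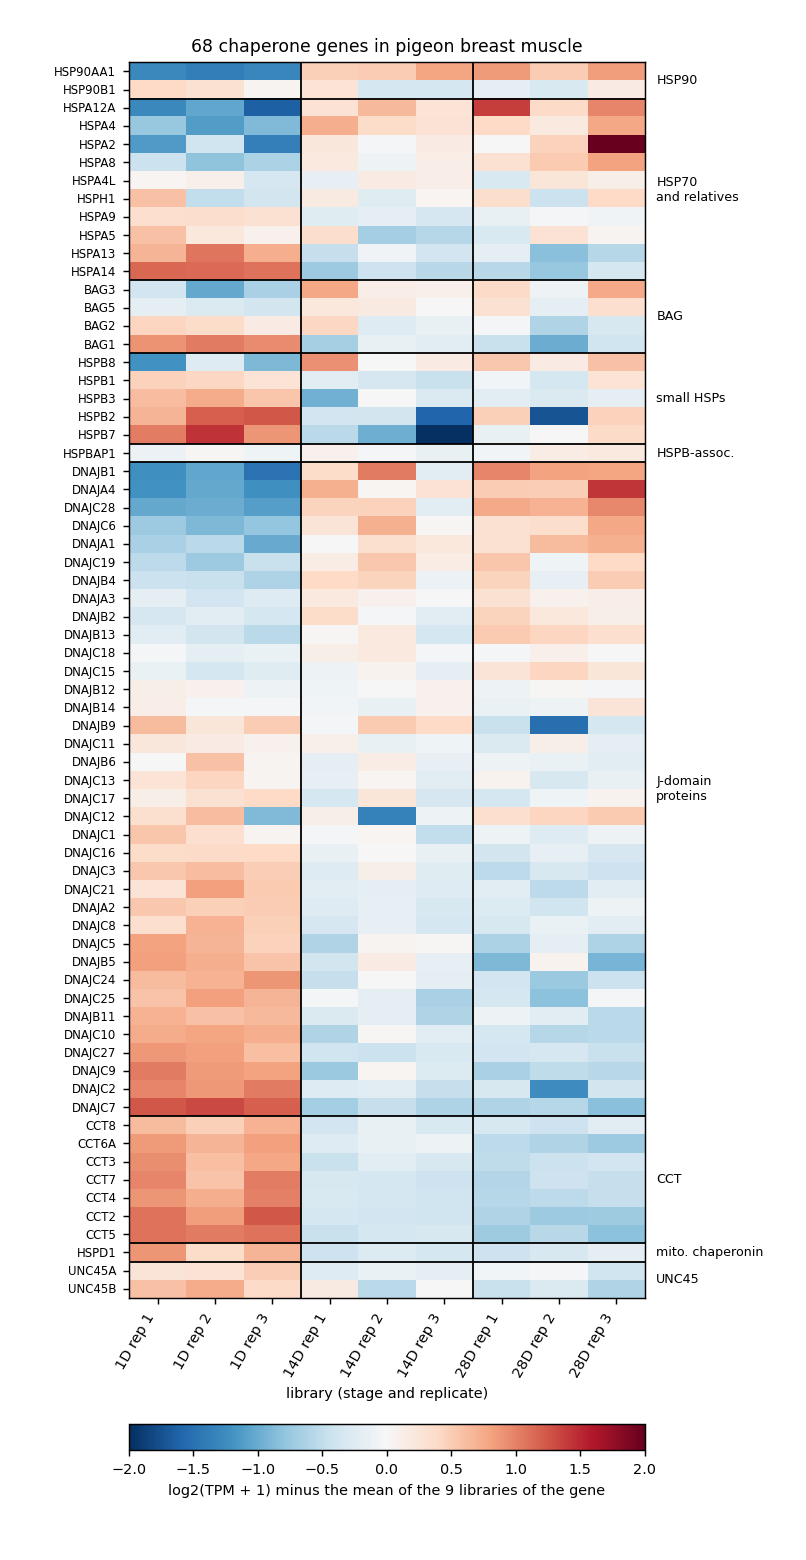
Heat map of the 68 chaperone genes (rows, grouped by family and ordered by the change of 14D vs 1D) in the 9 libraries (columns, from 1D on the left to 28D on the right). Colour is log2(TPM + 1) minus the gene's mean over the 9 libraries, and values beyond 2 in either direction share the end colour. The 1D libraries stand apart from the 6 later ones in both directions, while 14D and 28D look alike in most rows.

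Between 14D and 28D no member was called. The background was 0.544% higher and 0.87% lower of all genes, and after rescaling it was 0.929% and 0.853%, again with 0 members in either direction. At an unadjusted p below 0.05, limma gave 5 higher and 4 lower members, against 6.17% higher and 9.7% lower of all genes. These 9, named after their values were seen, were HSPA8, HSPB7, DNAJB13, DNAJC15 and DNAJC28, which were higher, and CCT2, CCT5, CCT6A and DNAJB9, which were lower. Their lowest adjusted p was 0.0943, for HSPB7. Against 1D, 28D had 19 higher and 35 lower members (background 16.4% and 43.9%), 12 and 21 of them by at least 2-fold (background 8.42% and 24.1%). Rescaled values gave 23 higher and 27 lower (background 28.5% and 29.6%). The 2 comparisons with 1D share the 1D libraries.

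**Figure D2:**
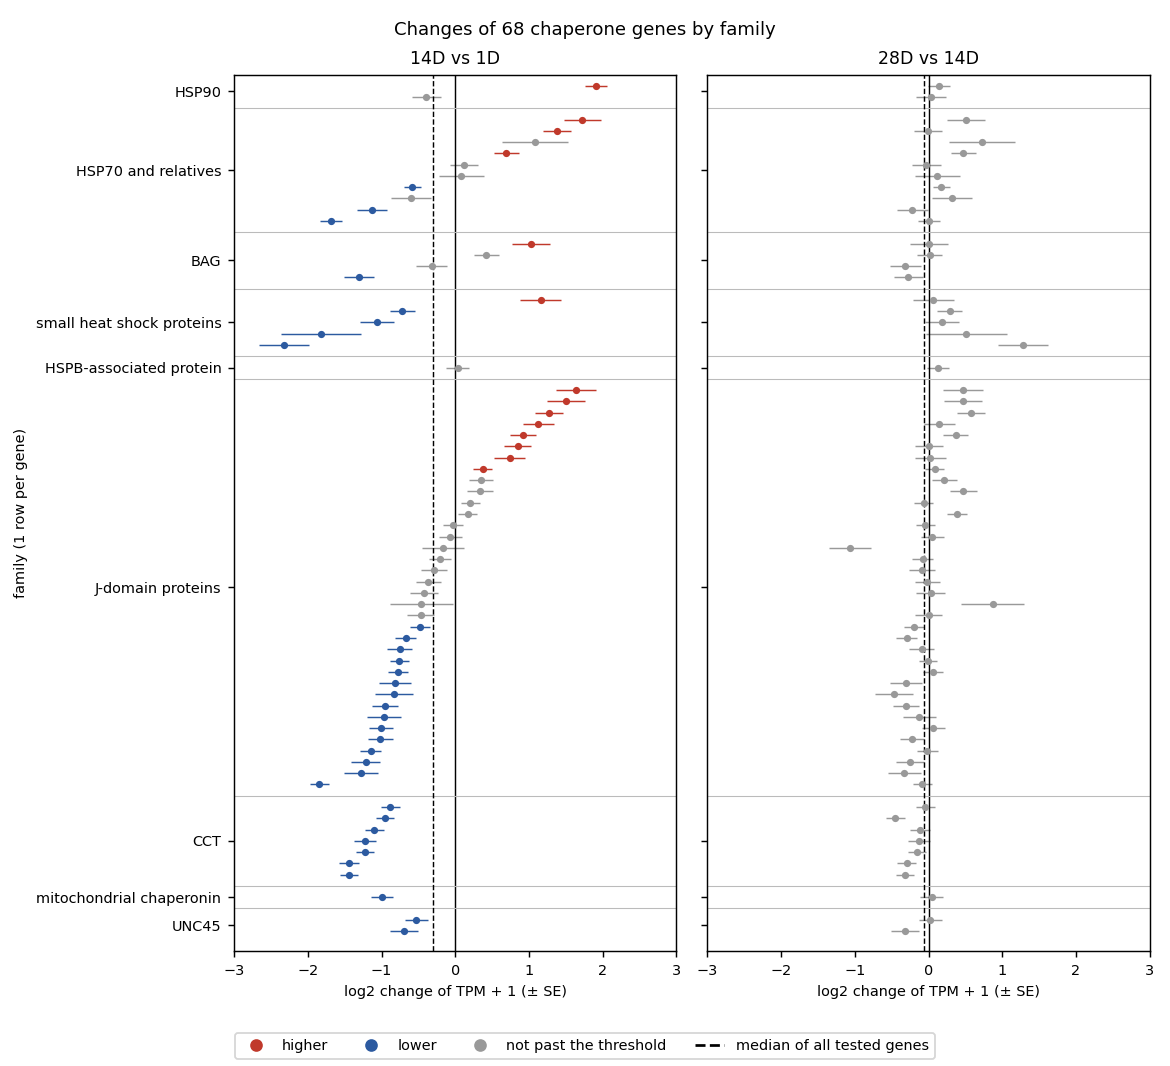
Log2 change of TPM + 1 (points, with SE as bars) of each of the 68 genes, 1 row per gene, for 14D vs 1D on the left and 28D vs 14D on the right. Red and blue mark genes called higher and lower (adjusted p below 0.05), grey those not called, and the dashed line is the median of all tested genes. In 14D vs 1D all 7 CCT genes lie below that median, while HSP70 genes and J-domain genes spread to both sides. In 28D vs 14D no gene is coloured.

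HSP90AA1, the inducible cytosolic HSP90 (gene ID 102086480), was the most abundant member. It had 340.4, 319 and 336 TPM at 1D, 1159, 1179 and 1439 TPM at 14D, and 1504, 1180.3 and 1479 TPM at 28D. Every library of 14D and 28D lay more than 3-fold above every 1D library, and 14D and 28D overlapped. The mean at 14D was 3.79 times that at 1D (log2 change 1.91 ± 0.15 (SE), adjusted p = 8.12e-06), and 28D against 14D was not called (log2 change 0.14 ± 0.15 (SE), adjusted p = 0.714). HSP90B1, the HSP90 of the endoplasmic reticulum, had 300.0, 280.1 and 236 TPM at 1D, 277, 177 and 178 TPM at 14D, and 202, 185 and 254 TPM at 28D. The stages overlapped and neither comparison with 1D was called (14D vs 1D log2 change -0.39 ± 0.20 (SE), adjusted p = 0.128). Without 14D replicate 1, the highest of that stage, the call was lower (-0.60, adjusted p = 0.02).

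The main cytosolic HSP70 gene was higher in the older birds. HSPA8, the constitutive HSC70 (gene ID 102086356), had 420.1, 323 and 364 TPM at 1D, 646, 526 and 617 TPM at 14D, and 696, 809 and 987 TPM at 28D. No library of a later stage lay below any library of an earlier one. The 14D mean was 1.62 times the 1D mean (log2 change 0.69 ± 0.17 (SE), adjusted p = 0.00601) and the 28D mean 2.25 times the 1D mean (log2 change 1.16 ± 0.17 (SE), adjusted p = 2.05e-04), while 28D vs 14D missed the threshold (0.47, adjusted p = 0.205). HSPA2, a close HSP70 relative best known from the testis of mammals (gene ID 102092474), had 57.9, 97.6 and 49.1 TPM at 1D, 151, 126 and 143 TPM at 14D, and 129, 178 and 539 TPM at 28D. The library of 28D replicate 3 stood far above the other 2 of its stage. The comparison of 28D with 1D was called (log2 change 1.81 ± 0.45 (SE), adjusted p = 0.00523) and gave 1.20 without that library (adjusted p = 0.00495). The 3 libraries of 14D all lay above those of 1D, but that comparison was not called on the deposited scale (log2 change 1.09 ± 0.45 (SE), adjusted p = 0.0624, or 1.44 and adjusted p = 0.0255 after rescaling). It was called with only the 2 stages compared (adjusted p = 0.00591). Leaving out 28D replicate 3 (0.00511), 28D replicate 1 (0.0369) or 1D replicate 2 (0.0426) also gave a call. How the authors treated reads that match several near-identical genes is not given in the sources used here, so the levels of HSPA8 and HSPA2, and of HSP90AA1, are uncertain to that extent.

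HSPA12A and HSPA4 rose as well. The first, a distant and atypical member of the superfamily, had 2.53, 3.23 and 1.8 TPM at 1D, 9.55, 12.6 and 9.5 TPM at 14D, and 21.5, 10.3 and 16.1 TPM at 28D. All later libraries were above all 1D libraries, with the highest at 28D replicate 1 (14D vs 1D log2 change 1.73 ± 0.26 (SE), adjusted p = 3.34e-04, 28D vs 1D log2 change 2.23 ± 0.26 (SE), adjusted p = 4.37e-05). HSPA4, an HSP110-type nucleotide exchange factor that helps HSP70 release its client, had 24.9, 19.3 and 22.8 TPM at 1D, 71.8, 55.6 and 52.7 TPM at 14D, and 56.8, 49.5 and 73.7 TPM at 28D. It rose by 14D (log2 change 1.38 ± 0.19 (SE), adjusted p = 1.81e-04) and was not called between the later stages (28D vs 14D -0.01, adjusted p = 0.991). Its relatives HSPH1 and HSPA4L, also HSP110-type, were not called in any comparison on the deposited scale. HSPH1 had 23.3 ± 10.8 TPM at 1D, 23.4 ± 3.58 at 14D and 26.1 ± 7.78 TPM at 28D, and HSPA4L had 17.4 ± 2.82 TPM at 1D, 18.8 ± 2.41 at 14D and 18.6 ± 3.72 TPM at 28D (28D vs 1D was called higher for HSPA4L after rescaling, adjusted p = 0.0424). HSPA14, HSPA13 and HSPA9 fell and HSPA5 was not called, and they are described with the ribosome, the endoplasmic reticulum and the mitochondria. Over the 10 genes of the family 3 were higher and 3 lower at 14D (4 and 2 after rescaling), or 30% each as deposited, against 13.6% higher and 39.2% lower of all genes.

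Several J-domain partners of cytosolic HSP70 rose too. DNAJB1, the HSP40 that activates HSP70 in protein disaggregation, had 4.53, 5.31 and 3.64 TPM at 1D, 15.7, 25.5 and 10.1 TPM at 14D, and 24.5, 21.5 and 21.4 TPM at 28D. The lowest library of 14D was still well above the highest of 1D, and 14D spread more widely than 28D (14D vs 1D log2 change 1.64 ± 0.27 (SE), adjusted p = 6.49e-04, 28D mean 5 times the 1D mean, adjusted p = 9.53e-05). DNAJA1, a class A partner of HSC70, had 54.9, 59.6 and 42.6 TPM at 1D, 87.8, 109 and 101 TPM at 14D, and 107, 135 and 144 TPM at 28D. Its 14D mean was 1.89 times and its 28D mean 2.46 times the 1D mean (14D vs 1D log2 change 0.92 ± 0.17 (SE), adjusted p = 0.00137). DNAJA4, another class A partner, had 24.2, 27.7 and 24 TPM at 1D, 94.5, 59 and 70.2 TPM at 14D, and 82.5, 81.3 and 156 TPM at 28D, with 28D replicate 3 again the highest library. It rose by 14D (log2 change 1.50 ± 0.26 (SE), adjusted p = 7.81e-04) and was called also in 28D vs 1D (1.97, adjusted p = 1.00e-04). In the reference annotation DNAJA4 overlaps ACSBG1, an acyl-CoA synthetase gene with 18.5 TPM at 1D, 64.2 at 14D and 59 TPM at 28D, and since use of strand in the counting is not given, reads of the 2 genes cannot be told apart.

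DNAJA2, the other abundant class A partner, went the opposite way to DNAJA1 and DNAJA4. It had 196, 188 and 193 TPM at 1D, 113, 119.7 and 107 TPM at 14D, and 112, 102 and 125 TPM at 28D. All 1D libraries lay above all later ones (14D vs 1D log2 change -0.76 ± 0.13 (SE), adjusted p = 6.31e-04), and the call was kept after rescaling (-0.39, adjusted p = 0.0187). DNAJA2 was the J-domain gene with the highest mean over the 9 libraries. At 1D it stood at 192 TPM beside 52.4 TPM for DNAJA1 and 25.3 TPM for DNAJA4, and at 28D at 113 TPM beside 129 and 107 TPM. DNAJC7, a TPR protein that links HSP70 and HSP90, fell the furthest of the J-domain genes. It had 117, 124 and 114 TPM at 1D, 30.2, 35.1 and 31.4 TPM at 14D, and 32, 32.5 and 26.8 TPM at 28D, so that every 1D library was more than 3-fold above every later one (14D vs 1D log2 change -1.84 ± 0.13 (SE), adjusted p = 6.01e-06).

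Among other cytosolic J-domain genes, DNAJB4 rose, with 30.7 ± 2.08 TPM at 1D, 52.5 ± 10.9 at 14D and 53.7 ± 13.1 TPM at 28D, although its 14D call was lost without 1D replicate 3 (adjusted p = 0.0511). DNAJB2, which carries ubiquitin-binding motifs, was called higher in 28D vs 1D (0.56, adjusted p = 0.0142, 0.0579 without 28D replicate 1). At 14D DNAJB2 was not called on the deposited scale (0.35, adjusted p = 0.103) but was called higher after rescaling (0.71, adjusted p = 0.00691). DNAJB5 fell, with 47.7 ± 4.24 TPM at 1D, 26.6 ± 5.26 at 14D and 19.9 ± 8.92 TPM at 28D, and lost its 14D call on rescaling (adjusted p = 0.141). That call was also lost without 1D replicate 1 or 2 or 14D replicate 1 or 3, each left out in turn. DNAJB6, a suppressor of polyglutamine aggregation whose mutations cause a human limb-girdle muscular dystrophy, was not called, at 137 ± 32.5 TPM at 1D, 111 ± 15.3 at 14D and 103 ± 4.65 TPM at 28D. A group of 17 cytosolic members held HSP90AA1, HSPA8, HSPA2, HSPA4, HSPA4L, HSPH1, DNAJA1, DNAJA2, DNAJA4, DNAJB1, DNAJB4, DNAJB5, DNAJC7 and the BAG genes. DNAJB2 and DNAJB6 were left out of it, and neither was called at 14D as deposited. HSPA14, DNAJC2, UNC45A, UNC45B, DNAJC5 and DNAJC24 were also left out, and all of these were called lower at 14D as deposited. The shares below depend on these choices, and with those genes included the lower share would be larger and the higher share smaller. The group had 8 higher and 4 lower at 14D and 10 higher and 5 lower at 28D against 1D (10 and 3, and 11 and 4, after rescaling). As deposited, 47.1% were higher and 23.5% lower at 14D, against 13.6% and 39.2% of all tested genes. At 28D the shares were 58.8% and 29.4%, against 16.4% and 43.9%. After rescaling the background was 24.5% and 25.9% at 14D, and 28.5% and 29.6% at 28D. This grouping by place in the cell was drawn up after the values were seen and has no test. Its summed level was 1422 ± 76.5 TPM at 1D, 2659 ± 157 at 14D and 3218 ± 554 TPM at 28D.

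**Figure D3:**
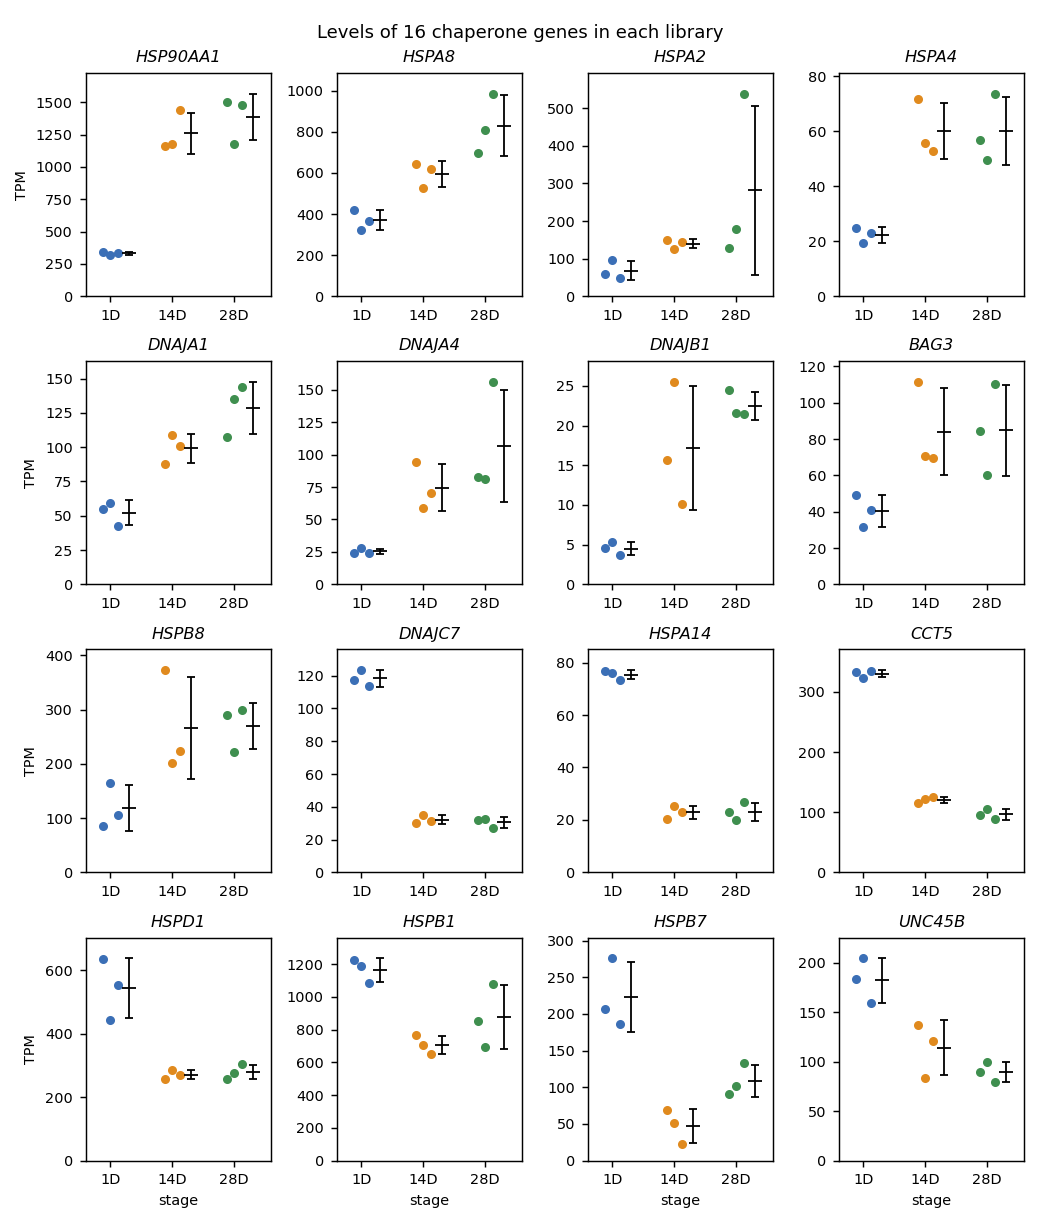
TPM of 16 chaperone genes in each library at 1D, 14D and 28D (points), with the mean and SD of the 3 libraries of a stage as a black bar beside them. Each panel has its own axis from 0. HSP90AA1, HSPA4 and DNAJA4 separate 1D from both later stages upward, DNAJC7, HSPA14 and CCT5 downward, and the single high 28D point of HSPA2 is replicate 3.

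The BAG genes, whose products bind the ATPase domain of HSP70, moved apart. BAG3, which together with HSPB8 takes damaged filamin and other Z-disc proteins to autophagy, had 49.2, 31.4 and 41 TPM at 1D, 112, 70.9 and 69.8 TPM at 14D, and 84.2, 60.3 and 110.4 TPM at 28D. The lowest later library (60.3 TPM) lay above the highest 1D library, and BAG3 rose by 14D (log2 change 1.02 ± 0.26 (SE), adjusted p = 0.00768) with 28D vs 14D not called (0.01, adjusted p = 0.993). BAG1, the founding BAG protein, which links HSP70 to the proteasome, had 20.7, 23.1 and 21.4 TPM at 1D, 6.37, 9.54 and 9.08 TPM at 14D, and 7.57, 4.87 and 7.84 TPM at 28D. It fell to 0.383 times the 1D mean at 14D and 0.311 times at 28D (14D vs 1D log2 change -1.30 ± 0.20 (SE), adjusted p = 4.23e-04), with every later library below every 1D library. BAG5 was higher at 28D than at 1D by a small margin (0.44, adjusted p = 0.0458), a call lost under 9 of the alternative settings, and after rescaling it was called at 14D too (0.76, adjusted p = 0.0028). BAG2, an inhibitor of the ubiquitin ligase CHIP, also called STUB1, had 44.4 ± 4.32 TPM at 1D, 36.1 ± 9.79 at 14D and 28.5 ± 5.92 TPM at 28D and was called lower at 28D against 1D on the deposited scale, but not after rescaling (adjusted p = 0.399). The 28D call of BAG2 was also lost without 1D replicate 1 or 2 or 28D replicate 2 or 3, each left out in turn. The 14D change of BAG2 was not called, except without 14D replicate 1 (adjusted p = 0.0469).

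Among the small heat shock proteins HSPB8 was higher at 14D and the other 4 were lower. After rescaling 3 of the 5 were lower and 1 was higher. Of all tested genes 39.2% were lower as deposited and 25.9% after rescaling. HSPB8, the partner of BAG3, had 85.2, 165 and 106 TPM at 1D, 374, 201 and 224 TPM at 14D, and 291, 222 and 299 TPM at 28D. The highest 1D library (replicate 2) lay below the lowest later one, and 14D replicate 1 was the highest of all (14D vs 1D log2 change 1.16 ± 0.28 (SE), adjusted p = 0.00586, 28D vs 1D log2 change 1.22 ± 0.28 (SE), adjusted p = 0.00347). In 14D replicate 1, BAG3 was also highest among the 9 libraries. HSPB1, known as HSP27, was the most abundant of the family and at 1D the most abundant of all members, with 1223, 1192 and 1084 TPM at 1D, 765, 705 and 653 TPM at 14D, and 856, 696 and 1082 TPM at 28D. All 14D libraries lay under all 1D libraries (log2 change -0.72 ± 0.17 (SE), adjusted p = 0.00503), whereas 28D replicate 3 lay just under the lowest 1D library. On the rescaled values HSPB1 was not called in either comparison with 1D (14D vs 1D -0.36, adjusted p = 0.107, and 28D vs 1D -0.01, adjusted p = 0.962). On the deposited scale 28D vs 1D stood at adjusted p = 0.0484, a call lost under most other settings. Among these were no filter (adjusted p = 0.0513), the replicate block (0.0717) and leaving out 1D replicate 1 (0.122) or 28D replicate 2 (0.181).

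HSPB7, a small heat shock protein of heart and skeletal muscle that binds filamin C, showed the largest fall of the module. It had 206, 277 and 187 TPM at 1D, 68.9, 50.6 and 23.1 TPM at 14D, and 91.3, 101 and 132 TPM at 28D. The stages did not overlap: 14D was lowest, with a wide spread, 28D lay above it and 1D above both. The fall at 14D was called (log2 change -2.32 ± 0.34 (SE), adjusted p = 2.90e-04). The higher level at 28D than at 14D was not (log2 change 1.28 ± 0.34 (SE), adjusted p = 0.0943), but was called when 14D replicate 1 was left out (1.61, adjusted p = 0.0373). At 28D HSPB7 was still lower than at 1D (-1.03, adjusted p = 0.022), a call lost on rescaling and without each of 3 libraries in turn. HSPB2, a muscle protein that binds the myotonic dystrophy kinase, had 16.5, 24.1 and 24.9 TPM at 1D, 7.35, 7.51 and 2.64 TPM at 14D, and 14.2, 2.3 and 14 TPM at 28D. Levels were scattered within 14D and 28D, the 14D call (log2 change -1.82 ± 0.55 (SE), adjusted p = 0.0174) was lost without each of 3 libraries in turn (highest adjusted p = 0.0671, without 14D replicate 3), and 28D vs 1D was not called (-1.31, adjusted p = 0.0602). HSPB3, its partner in muscle, had 4.92 ± 0.401 TPM at 1D, 1.95 ± 0.938 at 14D and 2.23 ± 0.122 TPM at 28D and was called lower in both comparisons with 1D. CRYAB, the alpha-B crystallin of the same protein family but outside the symbol rule, had 13.9 ± 3.74 TPM at 1D, 15 ± 3.81 at 14D and 6.74 ± 1.87 TPM at 28D. It was not called at 14D against 1D (0.11, adjusted p = 0.733) and was lower at 28D than at 1D (-0.93, adjusted p = 0.0103, or 0.124 after rescaling). HSPBAP1 had 4.05 ± 0.255 TPM at 1D, 4.17 ± 0.397 at 14D and 4.66 ± 0.495 TPM at 28D and was not called on the deposited scale (28D vs 1D adjusted p = 0.0159 after rescaling).

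The CCT chaperonin genes fell together. Of all tested genes 39.2% were lower at 14D and 43.9% at 28D, both against 1D (25.9% and 29.6% after rescaling). All 7 measured subunit genes with a CCT symbol were lower at 14D and at 28D than at 1D, also after rescaling. In none of them did a later library reach a 1D library, a separation that was not counted over all genes. Their summed level was 1805 ± 148 TPM at 1D, 792 ± 22.3 at 14D and 679 ± 3.73 TPM at 28D. CCT4 had the highest mean, with 388, 349 and 421 TPM at 1D, 169, 163 and 159 TPM at 14D, and 141, 146 and 152 TPM at 28D (14D vs 1D log2 change -1.23 ± 0.12 (SE), adjusted p = 2.95e-05). CCT5 and CCT2 fell furthest. CCT5 had 333, 323 and 335 TPM at 1D, 115, 123 and 125 TPM at 14D, and 94.9, 106 and 88.1 TPM at 28D, and its 14D mean was 0.365 times that of 1D (log2 change -1.45 ± 0.12 (SE), adjusted p = 1.33e-05). CCT2 had 234, 197 and 259 TPM at 1D, 85.4, 83.2 and 82.6 TPM at 14D, and 71.7, 65.8 and 66.5 TPM at 28D (14D vs 1D log2 change -1.44 ± 0.13 (SE), adjusted p = 2.07e-05). CCT8 fell least, with 218 ± 16.9 TPM at 1D, 118 ± 10.3 at 14D and 115 ± 7.37 TPM at 28D. Between 14D and 28D none was called. All libraries of 28D lay below all of 14D in CCT2, CCT4, CCT5, CCT6A and CCT7. In CCT7 the margin was small, with 60.37 TPM in 28D replicate 2 and 60.44 TPM in 14D replicate 3. The share of all genes separated in this way was not counted, so no further fall is read from it. CCT6A, with 279 ± 17.9 TPM at 1D, 144 ± 8.21 at 14D and 105 ± 7.34 TPM at 28D, had the largest difference of 28D vs 14D (-0.45, adjusted p = 0.107).

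The eighth CCT subunit carries the symbol TCP1 and so lies outside the rule. It had 333, 280.1 and 317 TPM at 1D, 85.4, 86.9 and 82.2 TPM at 14D, and 71, 68.9 and 77.2 TPM at 28D. Its log2 change (14D vs 1D log2 change -1.85 ± 0.12 (SE), adjusted p = 4.07e-06) was more negative than that of each of the 7, a difference between genes that was not tested. Prefoldin brings unfolded actin and tubulin to CCT, and the phosducin-like proteins act on the ring. Of 8 tested genes of this kind, TCP1 included, 4 were lower and 0 higher at 14D (2 and 0 after rescaling), or 50% lower as deposited, against 39.2% of all genes. TCP1, itself a CCT subunit, is 1 of those 4. After rescaling, 2 of 8 is close to the 25.9% lower of all genes. VBP1, a prefoldin subunit, fell to 31.8 ± 3.73 TPM at 14D, against 73.1 ± 1.64 TPM at 1D (log2 change -1.18 ± 0.27 (SE), adjusted p = 0.00457). PFDN4, another subunit, had 43.1 ± 0.904 TPM at 14D and 91.3 ± 16.9 TPM at 1D (log2 change -1.05 ± 0.35 (SE), adjusted p = 0.0273), a call lost on rescaling and without each of 5 libraries in turn. PFDN1, in contrast, was not called, at 538 ± 28.2 TPM at 14D and 524 ± 64.7 TPM at 1D. Tubulin leaves CCT for a chain of cofactors, and 3 of 4 of those tested were lower at 14D (also after rescaling). That is 75%, against 39.2% lower of all genes as deposited and 25.9% after rescaling. TBCD fell most, to 5.43 ± 1.15 TPM at 14D, against 24.4 ± 2.84 TPM at 1D (log2 change -1.99 ± 0.17 (SE), adjusted p = 1.41e-05), and TBCA had 44.9 ± 5.8 TPM at 14D and 98.5 ± 8.83 TPM at 1D (log2 change -1.12 ± 0.22 (SE), adjusted p = 0.0018). ACTA1, the skeletal actin that is a client of CCT, stood beside this at 12345 ± 1534 TPM at 1D, 23679.9 ± 3134 at 14D and 18063 ± 886 TPM at 28D and was called higher at 14D than at 1D (0.94, adjusted p = 0.00103).

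The 3 members that work at the ribosome, grouped after the values were seen, were called lower at 14D and at 28D than at 1D as deposited. After rescaling 2 of them were lower at 14D and 3 at 28D. Of all tested genes 39.2% and 43.9% were lower in these comparisons as deposited, and 25.9% and 29.6% after rescaling. HSPA14 is an atypical HSP70 which, with its J-domain partner DNAJC2, forms the ribosome-associated complex that meets new chains. It had 76.9, 76 and 73.4 TPM at 1D, 20.3, 25.5 and 22.9 TPM at 14D, and 22.9, 19.8 and 26.7 TPM at 28D. The 1D libraries lay close together and more than 2-fold above all later ones (14D vs 1D log2 change -1.68 ± 0.15 (SE), adjusted p = 1.58e-05). DNAJC2 had 124 ± 8.09 TPM at 1D, 50.4 ± 4.51 at 14D and 41.6 ± 13.7 TPM at 28D and was called lower in both comparisons with 1D. It overlaps PSMC2, a proteasome gene that was also lower at 14D, with 169.8 TPM at 1D, 89.1 at 14D and 94.8 TPM at 28D, and reads of the 2 cannot be told apart without strand. DNAJC21, which recycles factors of the large ribosomal subunit, was called lower too, with 45.5 ± 8.78 TPM at 1D, 26.2 ± 0.646 at 14D and 24.6 ± 3.06 TPM at 28D, but not at 14D after rescaling (adjusted p = 0.0669). The 3 nuclear J-domain genes had lower means in older birds as well on the deposited scale. Of these, 2 were called lower at 14D and 2 at 28D against 1D (2 and 1 after rescaling), beside the same shares of all genes. For DNAJC17 rescaling took the 28D vs 1D change of -0.40 to 0.00. DNAJC9, a histone chaperone, had 38 ± 3.5 TPM at 1D, 16.2 ± 4.49 at 14D and 13.1 ± 0.69 TPM at 28D, and DNAJC8, of the spliceosome, had 134 ± 17 TPM at 1D, 77.3 ± 5.62 at 14D and 80.7 ± 5.41 TPM at 28D, both called lower, though DNAJC8 not at 28D against 1D after rescaling (adjusted p = 0.0781). DNAJC17 was not called, with 22.2 ± 2.3 TPM at 1D, 16.6 ± 4.41 at 14D and 16.7 ± 2.55 TPM at 28D.

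In the endoplasmic reticulum several J-domain genes fell, while HSPA5, their HSP70 partner, had a lower mean at 14D that was not called. HSPA5, the HSP70 known as BiP (gene ID 102089896), had 309, 236 and 217 TPM at 1D, 261, 127 and 137 TPM at 14D, and 165, 251 and 212 TPM at 28D. All stages overlapped and no comparison was called (14D vs 1D log2 change -0.60 ± 0.27 (SE), adjusted p = 0.0898). With 14D replicate 1 left out, whose 261 TPM stood far above the other 2 of that stage, HSPA5 was lower at 14D than at 1D (-0.92, adjusted p = 0.00609). The same library was the highest of its stage for HSP90B1. Of the 10 members of this compartment 4 were lower at 14D and 0 higher, also after rescaling. That is 40%, close to the 39.2% lower of all tested genes on the deposited scale (25.9% after rescaling). DNAJB11, a J-domain partner of BiP, had 90.2 ± 3.39 TPM at 1D, 44.8 ± 6.58 at 14D and 46.9 ± 7.19 TPM at 28D, DNAJC10, a disulfide reductase of misfolded proteins, had 44.6 ± 1.01 TPM at 1D, 21.9 ± 4.75 at 14D and 18.3 ± 1.63 TPM at 28D, and DNAJC3, an inhibitor of the kinase PERK, had 107 ± 4.28 TPM at 1D, 66.8 ± 10 at 14D and 54 ± 3.86 TPM at 28D. HSPA13, a poorly known HSP70 of the same compartment, was the fourth, at 9.05 ± 1.51 TPM at 1D, 3.59 ± 0.662 at 14D and 2.98 ± 0.924 TPM at 28D. DNAJB9, which turns off the sensor IRE1 through BiP, was not lower at 14D but was called lower at 28D against 1D (means of 9.18 ± 3.84 TPM at 28D and 21.6 ± 3.07 TPM at 1D; -1.23, adjusted p = 0.00397). DNAJB12 and DNAJB14, membrane partners of cytosolic HSP70, were not called on the deposited scale, with 26.6 ± 2.15 TPM at 1D, 26 ± 1.56 at 14D and 25.2 ± 1.1 TPM at 28D for DNAJB12 and 14.4 ± 0.962 TPM at 1D, 13.7 ± 1.17 at 14D and 14.3 ± 2.45 TPM at 28D for DNAJB14. For 28D vs 1D the change of DNAJB12 was -0.07 as deposited and 0.33 after rescaling, which was called higher (adjusted p = 0.043).

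Other folding genes of the same compartment, a list outside the symbol rule, mostly fell. Of 22 tested, 19 were lower at 14D than at 1D and 1 was higher (14 and 1 after rescaling), with a median log2 change of -1.01, against -0.31 for all genes. As deposited these are 86.4% lower and 4.55% higher, against 39.2% and 13.6% of all tested genes (25.9% and 24.5% after rescaling). TXNDC5 and P4HB, protein disulfide isomerases, and FKBP9, a prolyl isomerase, fell most. P4HB, which is also a subunit of collagen prolyl hydroxylase, had 394, 318 and 324 TPM at 1D, 114, 131 and 107 TPM at 14D, and 122, 119 and 115 TPM at 28D (14D vs 1D log2 change -1.55 ± 0.14 (SE), adjusted p = 1.64e-05). TXNDC5 had 44.9 ± 5.37 TPM at 14D and 135 ± 6.71 TPM at 1D (log2 change -1.58 ± 0.20 (SE), adjusted p = 1.05e-04) and FKBP9 had 39.9 ± 6.19 TPM at 14D and 108 ± 18 TPM at 1D (log2 change -1.42 ± 0.16 (SE), adjusted p = 7.02e-05). PDIA3 and PPIB, named after their values were seen for their high levels, had 166 ± 33.6 TPM at 14D and 415 ± 20.8 TPM at 1D for PDIA3 and 474 ± 85.1 TPM at 14D and 1223 ± 64.2 TPM at 1D for PPIB.

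SERPINH1, the collagen chaperone HSP47, was the 1 gene of that list that rose. It had 164, 108 and 99.5 TPM at 1D, 248, 258 and 222 TPM at 14D, and 308, 338 and 296 TPM at 28D. Each stage lay wholly above the one before it (14D vs 1D log2 change 1.00 ± 0.18 (SE), adjusted p = 0.00125; 28D vs 1D log2 change 1.37 ± 0.18 (SE), adjusted p = 1.23e-04), with 28D vs 14D not called (0.37, adjusted p = 0.365). Its main client, the type I collagen chain COL1A1, moved the other way in the same libraries, with 2778, 2104 and 2105 TPM at 1D, 388, 329 and 427 TPM at 14D, and 131, 160.1 and 112 TPM at 28D (14D vs 1D log2 change -2.60 ± 0.18 (SE), adjusted p = 4.94e-06; 28D vs 14D log2 change -1.50 ± 0.18 (SE), adjusted p = 0.00814). The ratio of 14D to 1D means was 1.96 for SERPINH1 and 0.164 for COL1A1. All 6 fibroblast markers fell at 14D and together had 7161 ± 914 TPM at 1D, 1834 ± 76 at 14D and 881 ± 31.8 TPM at 28D, with the summed level in each later library below every 1D library. Their part in the falls of the folding genes was not tested.

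**Figure D4:**
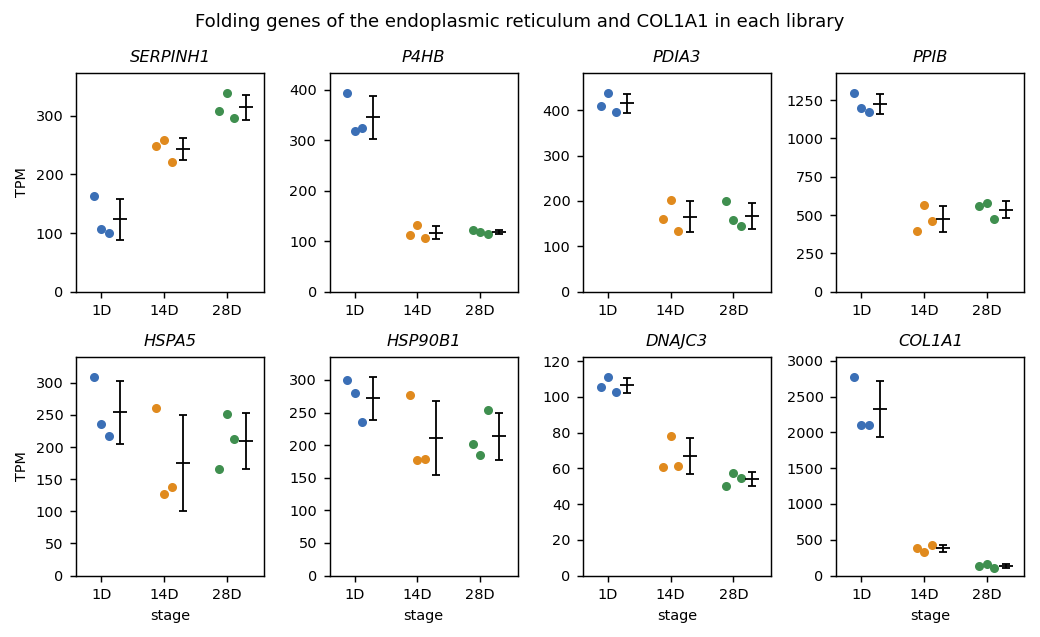
TPM of 7 folding genes of the endoplasmic reticulum and of COL1A1 in each library at 1D, 14D and 28D (points), with the mean and SD of the 3 libraries of a stage as a black bar, each panel with its own axis from 0. SERPINH1 is the gene whose stages step upward, while P4HB, PDIA3, PPIB and DNAJC3 drop by 14D. HSPA5 and HSP90B1 overlap across stages, with 1 high library at 14D.

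Sensors and effectors of the unfolded protein response did not share 1 direction, with 2 of 7 tested genes higher and 2 lower at 14D (2 and 0 after rescaling). As deposited these are 28.6% each, against 13.6% higher and 39.2% lower of all tested genes (24.5% and 25.9% after rescaling). ATF4, a transcription factor of the integrated stress response, was highest at 14D, with 267 ± 42.9 TPM at 1D, 418 ± 18.9 at 14D and 276 ± 28.7 TPM at 28D (14D vs 1D log2 change 0.66 ± 0.15 (SE), adjusted p = 0.00395). HERPUD1, which helps in the disposal of proteins from the endoplasmic reticulum, had 5.67 ± 1.66 TPM at 14D and 3.06 ± 0.763 TPM at 1D (log2 change 0.70 ± 0.22 (SE), adjusted p = 0.0225, a call lost without each of 3 libraries in turn). ATF6, a sensor that induces BiP, had 8.84 ± 0.389 TPM at 14D and 14.1 ± 0.988 TPM at 1D (log2 change -0.61 ± 0.14 (SE), adjusted p = 0.00435, not called after rescaling). XBP1, the transcription factor activated by IRE1, was not called, at 53.8 ± 13.1 TPM at 14D and 53.9 ± 13.5 TPM at 1D.

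In the mitochondria the chaperonin HSPD1 fell and a subunit of the import motor rose, while the fall of HSPA9 was lost on rescaling. HSPD1, the HSP60 chaperonin of the matrix, had 635, 445 and 553 TPM at 1D, 257, 285 and 269 TPM at 14D, and 258, 276 and 304 TPM at 28D. All 1D libraries lay above all later ones, with a wide spread at 1D (14D vs 1D log2 change -0.99 ± 0.15 (SE), adjusted p = 4.10e-04), and the call was kept after rescaling (adjusted p = 0.00666). HSPD1 overlaps COQ10B in the annotation, a gene that rose, with 46.6 TPM at 1D, 117 at 14D and 126 TPM at 28D. HSPA9, the mitochondrial HSP70 mortalin, had 381 ± 6.81 TPM at 1D, 255 ± 13.7 at 14D and 287 ± 12.5 TPM at 28D. It was called lower at 14D on the deposited scale (-0.58, adjusted p = 0.00198) but not after rescaling (-0.22, adjusted p = 0.137), and for 28D vs 1D rescaling took the change of -0.41 to 0.01.

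DNAJC19, a J-domain subunit of the import motor that pulls proteins into the matrix, rose, with 85.8 ± 8.41 TPM at 1D, 156 ± 26.1 at 14D and 158 ± 34.3 TPM at 28D. DNAJC15, its relative, was called higher at 28D against 1D, with 54.2 ± 4.02 TPM at 28D and 36.7 ± 2.86 TPM at 1D. At 14D it was not called on the deposited scale (0.17, adjusted p = 0.313) but was after rescaling (0.52, adjusted p = 0.00513). DNAJA3, the matrix J-domain protein TID1, had 54.6 ± 4.02 TPM at 1D, 70.9 ± 4.82 at 14D and 75.2 ± 6.11 TPM at 28D and was called higher in both comparisons with 1D, by 0.37 and 0.45 on the log2 scale, though the 14D call was lost without each of 3 libraries in turn and the 28D call without 1D replicate 2 (adjusted p = 0.0504). DNAJC11, of the inner membrane organising system, was not called, at 61.1 ± 2.99 TPM at 1D, 52.9 ± 4.89 at 14D and 50.3 ± 7.7 TPM at 28D. Of 9 mitochondrial proteases and unfoldases tested, 1 was lower and 0 higher at 14D (0 lower and 3 higher after rescaling). As deposited 11.1% were lower, against 39.2% lower and 13.6% higher of all tested genes (25.9% and 24.5% after rescaling). The 1 lower gene was PHB2, a prohibitin scaffold of the inner membrane, with 244 ± 18.4 TPM at 14D and 318 ± 6.57 TPM at 1D (log2 change -0.38 ± 0.13 (SE), adjusted p = 0.0272, not called after rescaling). This call was also lost without 1D replicate 1, 2 or 3 or 14D replicate 3, each left out in turn.

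The myosin chaperones fell on the deposited scale. UNC45B, the striated-muscle form, had 184, 204 and 159 TPM at 1D, 137, 83.4 and 121 TPM at 14D, and 89.1, 99.5 and 79.6 TPM at 28D. All 1D libraries lay above all later ones (14D vs 1D log2 change -0.69 ± 0.19 (SE), adjusted p = 0.0119; 28D vs 1D log2 change -1.02 ± 0.19 (SE), adjusted p = 0.00112). After rescaling 14D vs 1D was not called (adjusted p = 0.244) and 28D vs 1D was, just under the threshold (adjusted p = 0.043). UNC45A, the general form, had 12.3, 12.5 and 14.6 TPM at 1D, 8.33, 9.16 and 8.84 TPM at 14D, and 9.67, 9.96 and 7.42 TPM at 28D. It too was lower at 14D (log2 change -0.53 ± 0.16 (SE), adjusted p = 0.0154) but in neither comparison with 1D after rescaling (adjusted p = 0.315 and 0.529). The 14D call of UNC45A was also lost without 1D replicate 3 (adjusted p = 0.0594). SMYD1, a methyltransferase that works with UNC45B and HSP90 on myosin, had 39.7, 69.9 and 54.3 TPM at 1D, 71.2, 106 and 118 TPM at 14D, and 135, 66.5 and 89.3 TPM at 28D. Its means were higher in older birds, yet the 14D call (log2 change 0.84 ± 0.29 (SE), adjusted p = 0.0323) was lost without each of 4 libraries in turn and with the replicate block (adjusted p = 0.0537). SMYD1 was also called higher at 28D than at 1D (0.79, adjusted p = 0.0369), although 28D overlapped 1D. That call too was lost under several settings, among them the replicate block (0.0589) and leaving out 28D replicate 1 (0.141).

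Of 8 tested genes of myosin folding and Z-disc upkeep outside the rule, 3 were higher and 2 lower at 14D, also after rescaling. That is 37.5% higher and 25% lower, against 13.6% and 39.2% of all tested genes (24.5% and 25.9% after rescaling). At 28D against 1D, 2 were higher and 3 lower (3 and 2 after rescaling). The background there was 16.4% higher and 43.9% lower (28.5% and 29.6% after rescaling). SQSTM1, the autophagy receptor p62 that acts downstream of BAG3, had 79.9, 134 and 83.8 TPM at 1D, 347, 235 and 277 TPM at 14D, and 351, 429 and 290.4 TPM at 28D. It rose by 14D (log2 change 1.54 ± 0.23 (SE), adjusted p = 3.56e-04) with every later library above every 1D library. SYNPO2, a Z-disc protein bound by BAG3, had 13.1 ± 4.89 TPM at 14D and 3.69 ± 0.812 TPM at 1D (log2 change 1.53 ± 0.36 (SE), adjusted p = 0.00512). Its 28D vs 1D change was not called as deposited but was called higher after rescaling (1.15, adjusted p = 0.0202). CSRP3, the muscle LIM protein of the Z-disc, had 35.5 ± 4.69 TPM at 1D, 10.6 ± 8.66 at 14D and 2 ± 0.531 TPM at 28D and fell (14D vs 1D log2 change -1.92 ± 0.42 (SE), adjusted p = 0.0033). SMYD2, a methyltransferase that stabilises titin together with HSP90, was the other gene that fell, with 20.5 ± 3.28 TPM at 14D and 50.9 ± 13.6 TPM at 1D. FLNC, the filamin C that BAG3 and HSPB7 attend to, was not called, with 107 ± 34.4 TPM at 14D and 93.2 ± 4.86 TPM at 1D.

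Of the heat shock factors, HSF2 fell and HSF1 was higher by 28D. HSF1, the transcription factor that switches on heat shock genes under stress, had 18.3, 14.9 and 15.8 TPM at 1D, 17, 17 and 16.5 TPM at 14D, and 21.1, 23.1 and 23.9 TPM at 28D. It was not called at 14D (log2 change 0.05 ± 0.14 (SE), adjusted p = 0.795, though 0.39 and adjusted p = 0.0314 after rescaling), and at 28D all libraries lay above those of both other stages, with 28D vs 1D called (log2 change 0.45 ± 0.14 (SE), adjusted p = 0.0141) except without 1D replicate 2 (adjusted p = 0.0589). HSF2, a factor active in development, had 88.4, 119 and 93.7 TPM at 1D, 68.4, 50 and 36.9 TPM at 14D, and 32.8, 24.7 and 31.6 TPM at 28D. It fell (14D vs 1D log2 change -0.97 ± 0.22 (SE), adjusted p = 0.00426), with no overlap between any of the stages. HSBP1, a small protein that binds HSF1, had 53 ± 8.48 TPM at 14D and 86.9 ± 19.4 TPM at 1D (log2 change -0.69 ± 0.23 (SE), adjusted p = 0.0257, not called after rescaling). Its call was also lost without 1D replicate 2 or 14D replicate 1 or 3, each left out in turn.

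Co-chaperones outside the symbol rule had 2 higher and 10 lower of 24 at 14D against 1D, and 7 higher and 3 lower after rescaling. As deposited, these are 8.33% and 41.7%, near the 13.6% and 39.2% of all tested genes. After rescaling, 24.5% of all genes were higher and 25.9% lower, so the lower share of this list was then below that of all genes. AHSA2, an activator of the HSP90 ATPase, rose to 6.63 ± 1.3 TPM at 14D, against 2.42 ± 0.233 TPM at 1D (log2 change 1.15 ± 0.17 (SE), adjusted p = 3.26e-04). Its relative AHSA1 was the other riser, with 126 ± 10.1 TPM at 14D and 97.5 ± 5.65 TPM at 1D. FKBP5, an HSP90-bound immunophilin that dampens glucocorticoid receptors, had 56.3, 70.7 and 68.6 TPM at 1D, 38.2, 12.2 and 11.8 TPM at 14D, and 30.3, 21 and 26.2 TPM at 28D. Both 1D and 28D were higher than 2 of the 14D libraries, while 14D replicate 1 lay between the lowest 1D and the highest 28D library (14D vs 1D log2 change -1.81 ± 0.37 (SE), adjusted p = 0.00216). FNIP2, a partner of HSP90 in AMPK signalling, had 12.2 ± 8.05 TPM at 14D and 27.4 ± 10.5 TPM at 1D (log2 change -1.22 ± 0.39 (SE), adjusted p = 0.0231, a call lost on rescaling and without each of 3 libraries in turn).

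The remaining J-domain genes have varied or little-known roles. DNAJC6, the auxilin that uncoats clathrin vesicles with HSP70 in neurons of mammals, had 0.817 ± 0.108 TPM at 1D, 3.05 ± 1.01 at 14D and 3.44 ± 0.849 TPM at 28D and rose at a low level. DNAJB13, an axonemal protein of sperm and cilia, had 3.61 ± 0.496 TPM at 1D, 4.86 ± 1.09 at 14D and 7.05 ± 0.562 TPM at 28D and was called higher at 28D against 1D. It overlaps 2 genes in the annotation, 1 of them (LOC102092157) at 1.34 TPM at 1D, 95.7 at 14D and 162 TPM at 28D, whose reads cannot be told apart from those of DNAJB13 without strand. DNAJC28 had 27.5 ± 1.09 TPM at 1D, 69.4 ± 17.3 at 14D and 102 ± 10.4 TPM at 28D and was called higher in both comparisons with 1D. It overlaps TMEM50B, which had 28 TPM at 1D, 29.7 at 14D and 30 TPM at 28D. DNAJC5, the cysteine string protein of synaptic vesicles, DNAJC16, DNAJC24, DNAJC25 and DNAJC27 were called lower in both comparisons with 1D. Their 14D means lay between 5.07 TPM (DNAJC24) and 12.6 TPM (DNAJC5), and their 1D means between 9.22 TPM (DNAJC16) and 22.6 TPM (DNAJC5). After rescaling, DNAJC5 was not called at 14D, and DNAJC16 was called neither at 14D nor at 28D against 1D (adjusted p = 0.338 and 0.0649). The 14D call of DNAJC16 was also lost without 14D replicate 3 (adjusted p = 0.0503). DNAJC1 was counted above among the members of the endoplasmic reticulum. It had a log2 change of -0.47 at 14D (adjusted p = 0.051) and of -0.47 at 28D (adjusted p = 0.0454), both against 1D, so that 1 missed and the other just passed the threshold. The 28D call was lost on rescaling and without each of 5 libraries in turn, and 14D was called lower without 1D replicate 3 (adjusted p = 0.0348) and without 14D replicate 2 (adjusted p = 0.0353). DNAJC12, DNAJC13 and DNAJC18 were not called on the deposited scale, and DNAJC18 was called higher after rescaling at 14D and at 28D against 1D (adjusted p = 0.00294 and 0.00256). Across all 36 J-domain genes 8 were higher and 15 lower at 14D (12 and 11 after rescaling), and 11 higher and 17 lower at 28D against 1D (13 and 14). The lower shares, 41.7% at 14D and 47.2% at 28D, were near the 39.2% and 43.9% of all tested genes, and the higher shares were 22.2% and 30.6%, against 13.6% and 16.4%.

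The 68 members together had 7783 ± 279.6 TPM at 1D, 6619 ± 282 at 14D and 7377 ± 862 TPM at 28D, which was 0.925%, 0.876% and 0.949% of the mRNA table at 1D, 14D and 28D. The 2 HSP90 genes together had 604 ± 34.4 TPM at 1D, 1469.6 ± 134 at 14D and 1601 ± 205 TPM at 28D, and the 10 HSP70 genes had 1223 ± 101 TPM at 1D, 1305 ± 142 at 14D and 1756 ± 400.4 TPM at 28D. Small heat shock proteins together had 1535 ± 129 TPM at 1D, 1029 ± 165 at 14D and 1269 ± 254 TPM at 28D. The 36 J-domain genes together had 1755 ± 58.4 TPM at 1D, 1480.3 ± 131 at 14D and 1551 ± 88.1 TPM at 28D. At 1D the sums of the CCT and J-domain genes were the highest and overlapped, and at 28D the CCT sum was the lowest of the 5 families.

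**Figure D5:**
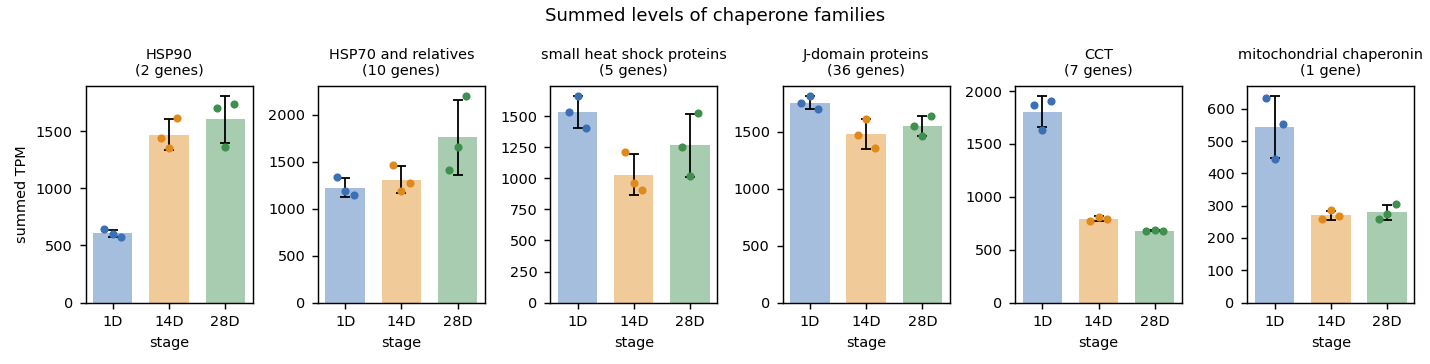
Summed TPM of 6 chaperone families at 1D, 14D and 28D. Bars are the mean of 3 libraries with SD, points are the libraries, and each panel has its own axis from 0. HSP90 is higher, and CCT, the mitochondrial chaperonin and the J-domain genes lower, at both later stages than at 1D without overlap. The J-domain sums differ less in proportion than the others named.

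Markers of other cells moved along with age. Genes of dividing cells fell in 5 of 5 and together had 327 ± 29 TPM at 1D, 60.7 ± 17.9 at 14D and 28.1 ± 3.2 TPM at 28D, endothelial markers rose in 4 of 5 and together had 329 ± 37 TPM at 1D, 569.8 ± 226 at 14D and 609 ± 35.6 TPM at 28D, and macrophage and lymphocyte markers rose in 3 of 4, with 50.5 ± 24.4 TPM at 1D, 499 ± 137 at 14D and 567 ± 149 TPM at 28D, most of it CD74. The Schwann cell list had 2 of 4 lower at 14D and together had 92.4 ± 8.19 TPM at 1D, 47.2 ± 6.45 at 14D and 37.7 ± 3.21 TPM at 28D, the smooth muscle and pericyte list had 2 higher and 1 lower of 5 and together had 579 ± 89.9 TPM at 1D, 635 ± 174 at 14D and 666 ± 59.4 TPM at 28D, and 1 of 2 adipocyte markers rose, with a sum of 47.5 ± 13.3 TPM at 1D, 112 ± 12.2 at 14D and 187 ± 20.4 TPM at 28D. Of the red cell markers HBAD, a haemoglobin chain, had 312 ± 94.9 TPM at 1D and at most 1.3 TPM in any later library, with 0 in 14D replicate 1 and 28D replicate 3, and SLC4A1 was not called. The part of these cells in the chaperone results was not tested. At 14D against 1D, the comparison of these marker counts, 13.6% of all tested genes were higher and 39.2% lower. In the annotation, 18 of the 68 members overlap another protein-coding gene, among them also CCT5, CCT6A, HSPA2, HSPA12A, HSPH1, DNAJA2, DNAJA3, DNAJC17 and BAG5. DNAJC9, DNAJC10, DNAJC24 and DNAJC27 overlap genes also called lower at 14D (FAM149B1, STK17B, IMMP1L and EFR3B). IMMP1L had 89.5 TPM at 1D and 31.7 TPM at 14D. BAG5 overlaps a gene called higher at 14D, and CCT6A, which fell, overlaps PSPH, which rose. Reads of overlapping genes cannot be told apart without strand.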

How the data were processed

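RNA of 9 breast muscle libraries was analysed. The authors deposited TPM tables for mRNA genes and for long noncoding RNAs. The tools named, per the submitters' processing notes, are STAR 2.6.0c and Cufflinks 2.1.1. Their roles, the genome build, the annotation, the use of strand and the treatment of multiply matching reads are not given in the sources used here. Each table had 12 value columns, of which 9 matched a sample title by stage and replicate. The 3 other columns matched no label and were used in no step. Depth is unknown, since TPM keeps no read counts.

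Of 12918 gene IDs, 12256 were matched to symbols through RefSeq (assembly bColLiv1.pat.W.v2), whose coordinates are not printed because the authors' build is not known. The 0 long noncoding entries that matched the symbol rule added no member. The 11951 genes that reached 1 TPM in 3 or more libraries were fitted with limma 3.58.1 in R 4.3.3 on log2(TPM + 1), with 1 mean per stage and eBayes with trend. Tests were two-sided, and p-values were Benjamini-Hochberg adjusted over all genes within a comparison, with a threshold of 0.05. The script was tested on simulated data. The alternatives were a pseudocount of 0.1, no filter, median-ratio rescaling, quantile normalization, eBayes without trend, only the 2 stages compared, a replicate block, no minimum mean and leaving out each library.

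The members and gene lists were chosen with earlier results of these data known, so no list is independent support. Test results, with library values or stage means, are given for the most abundant and the most changed called members (at least 5 TPM in the higher stage) of each family (up to 3 in 14D vs 1D and in 28D vs 14D). They were also planned for 14 known chaperones whatever their result, of which HSP90AB1 and HSPE1 were not analysed. The same holds for the 3 most changed called genes of each other list (TBCE is not shown) and for HSF1, HSF2, SMYD1, TCP1, CRYAB and SERPINH1. The design was written for 12 libraries and run on 9. Grouping by compartment was made after the values were seen.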

Additional observations from a re-analysis of the deposited data

How the results depend on the processing

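The 7 counts of called chaperone genes were recomputed under every alternative, except the F test with only the 2 stages compared, which has no such value. Of these recomputed counts 117 lay within 1.5 times the reported count, and 1 did not. That was the number higher at 28D vs 14D, which was 1 (HSPB7) without 14D replicate 1 and 0 under every other setting. Leaving out each library in turn gave 46 to 55 genes in the F test, 12 to 15 higher and 30 to 35 lower at 14D vs 1D, 0 to 1 higher and 0 lower at 28D vs 14D, and 17 to 19 higher and 31 to 35 lower at 28D vs 1D. Quantile normalization gave 21 higher and 25 lower at 14D vs 1D, and 23 and 28 at 28D vs 1D, close to the median-ratio values. Under every setting 12 of the 14 higher and 23 of the 33 lower genes stayed called at 14D vs 1D, and 16 of 19 and 26 of 35 at 28D vs 1D. Both scalings kept all 14 and all 19 higher calls, and 24 of 33 and 26 of 35 lower ones. Among genes called under either setting, direction turned in 3 cases, all for 28D vs 1D: DNAJB12 was 0.33 after median-ratio rescaling and 0.34 after quantile normalization, and HSPA9 was 0.0125 after median-ratio rescaling. The cause was not tested. Among members called under neither setting, the sign of the change also turned after median-ratio rescaling, which shifts all genes, in 6 at 14D vs 1D, 8 at 28D vs 14D and 6 at 28D vs 1D (quantile normalization 6, 10 and 4). Leaving out 1 library turned it in 0 to 3, 0 to 14 and 0 to 2 of them, none called. Leaving out 1 library moved a called value over 1.5 times in 4 cases, all for 28D vs 1D: SMYD1 (0.53 without 28D replicate 1), HSPB1 (-0.28 without 28D replicate 2), PFDN4 (-0.85 without 28D replicate 2) and HSPA2 (1.20 without 28D replicate 3). The titles number the libraries of each stage from 1 to 3, and the correlation of same-numbered libraries in their deviations from the stage means was -0.0719 to 0.0466 over 9 pairs, so the numbers were not taken to pair them. With the replicate block, 14 higher and 34 lower genes were called at 14D vs 1D, 0 and 0 at 28D vs 14D, and 18 and 34 at 28D vs 1D, with 52 in the F test. The TPM tables hold no depth, so what depth limits could not be set out.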

Other observations

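The genes below were picked after their values were seen, and their library values are given with no explanation. At 28D, replicate 3 was the highest library for HSPA2 (539 TPM), HSPA8 (987 TPM), DNAJA4 (156 TPM) and BAG3 (110.4 TPM), but not for HSP90AA1, whose highest 28D library was replicate 1 at 1504 TPM. At 14D, replicate 2 was the highest library for 39 of the 68 members, replicate 1 for 23 and replicate 3 for 6, counts that were not made over all genes. Replicate 1 was the highest for HSPA5 (261 TPM), HSP90B1 (277 TPM), BAG3 (112 TPM), HSPB8 (374 TPM) and FKBP5 (38.2 TPM). XBP1 had 68.9 TPM in that library and 45.8 and 46.8 TPM in the other 2 of the stage, and at 1D it had 69.4 TPM in replicate 1 beside 45.2 and 47.1 TPM. At 1D, HSPA5 was also highest in replicate 1 (309 TPM), as was HSPH1 (35.7 TPM, beside 16.3 and 17.9 TPM).

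Counted over the 68 members, the lowest library at 1D was replicate 1 for 13, replicate 2 for 22 and replicate 3 for 33. At 14D it was replicate 1 for 24, replicate 2 for 13 and replicate 3 for 31, and at 28D replicate 1 for 24, replicate 2 for 31 and replicate 3 for 13, so this skew was not particular to a stage. The same counts over all genes were not made, so the skew is not read as a trait of the chaperone genes. Genes chosen for a wide gap at 28D replicate 2 are given here. DNAJC2 had 25.8 TPM in that library and 50.2 and 48.8 TPM in the other 2 libraries, DNAJB9 had 4.77 TPM beside 11 and 11.8 TPM, and HSPB2 had 2.3 TPM beside 14.2 and 14 TPM. PFDN4 (17.2 TPM beside 57 and 43.2 TPM) and VBP1 (11.6 TPM beside 26.6 and 27.7 TPM) were also lowest there.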
